A study of Mus musculus with 30 samples.

Results

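The genes described are 9 components and partners of transforming growth factor beta (TGF-beta) signalling in microglia, the resident macrophages of the brain. They are the ligand Tgfb1, the receptors Tgfbr1 and Tgfbr2, the signal transducer Smad3, the inhibitors Smad7, Ski and Pmepa1, and the transcription factors Runx1 and Sall1. Their chromatin regions were chosen by position: a listed region belonged to a gene where it overlapped the RefSeq span extended by 10 kb on each side. It also belonged to the gene where an end of that gene was the protein-coding gene end nearest to the region's midpoint, within 100 kb. By this rule 66 of 22399 listed regions belonged to the 9 genes, and each gene had at least 2.

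The regions compare microglia of 2 genotypes of C57BL/6J mice aged 8 weeks. In Mir137 cKO animals both alleles of Mir137, the gene of the microRNA miR-137, were flanked by loxP sites, and in cWT animals Mir137 was intact. All carried the tamoxifen-inducible Tmem119-CreERT2 allele, which acts where the microglial gene Tmem119 is active, and the series text gives tamoxifen on 7 consecutive days at 7 to 8 weeks of age. About 100000 sorted microglia per genotype were used for CUT&Tag, a method where a transposase, held to its target by an antibody, tags the DNA nearby. Antibodies recognised H3K27ac (found at active promoters and enhancers), H3K4me3 (typical of promoters), RNA polymerase II (Pol II), Pol II phosphorylated on serine 5 of its tail (Pol II Ser5P, enriched near gene starts) and the myeloid transcription factor Pu.1. Each of the 10 groups had 3 replicates, while the series text mentions 4 mice, and whether replicates were separate animals is not stated. One antibody catalogue number is shared by H3K27ac, Pol II and Pol II Ser5P in the labels' protocol, and another by H3K4me3 and Pu.1.

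The data are 10 lists of regions, a cKO-specific and a cWT-specific one for each antibody, of 44 to 6995 regions. They hold no value per replicate and no read count, so depth is unknown, replicate spread cannot be given, and no test was made. A gene absent from both lists may carry the mark equally in both genotypes or not at all. The libraries were bulk, so more cells with a signal and more signal per cell cannot be told apart. No listed region lay within 10 kb of Mir137 (chromosome 3, 118433857 to 118433929), so the lists do not check the deletion. Of 10 microglial markers, 8 had listed regions, Tmem119 and P2ry12 among them, and Aif1 and Trem2 had none, where 49.6% of all protein-coding genes had some. But 3 of 5 border macrophage, 3 of 4 astrocyte and 3 of 3 endothelial markers had some too. Fewer did among monocyte and neutrophil (1 of 5), lymphocyte (1 of 3), neuron (1 of 4) and oligodendrocyte lineage markers (2 of 6). The lists therefore do not measure cell purity.

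TGF-beta is made as a latent protein and, once released, binds a receptor complex in which Tgfbr2 activates Tgfbr1, which then phosphorylates Smad2 and Smad3. These move with Smad4 to the nucleus and bind DNA together with lineage factors such as Runx proteins. In mice, TGF-beta signalling is required for the adult microglial expression programme, of which Sall1 is a defining transcription factor.

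Where listed regions met annotated promoters, the DNA concerned is printed here. Each is a RefSeq promoter window of GRCm38.p6, the assembly of the mm10 coordinates, of 300 bases (250 before the transcript start and 50 from it), printed in the direction of transcription. They are shown because a listed region covered at least 50 of their bases. In the Tgfbr1 and Tgfb1 windows and in the proximal Runx1 window, capitals mark the bases under a cKO Pu.1, a cKO Pol II and a cKO Pu.1 region. The distal Runx1 window lay wholly under a cWT H3K27ac region, and there capitals mark the Runx letters TGTGGT, read on the opposite strand as ACCACA. The mature miR-137-3p, the product of the targeted gene, is given last with its seed (bases 2 to 8) in capitals.
Tgfbr1 (chr4:47352972-47353271, plus strand): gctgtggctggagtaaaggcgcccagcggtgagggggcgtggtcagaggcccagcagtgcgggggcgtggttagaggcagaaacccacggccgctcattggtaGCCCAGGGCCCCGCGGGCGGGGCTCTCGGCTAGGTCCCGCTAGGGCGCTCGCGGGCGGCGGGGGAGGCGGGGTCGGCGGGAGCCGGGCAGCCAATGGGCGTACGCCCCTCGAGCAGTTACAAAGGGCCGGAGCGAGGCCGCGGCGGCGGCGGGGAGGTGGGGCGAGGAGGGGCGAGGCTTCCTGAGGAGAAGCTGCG
Tgfb1 (chr7:25686752-25687051, plus strand): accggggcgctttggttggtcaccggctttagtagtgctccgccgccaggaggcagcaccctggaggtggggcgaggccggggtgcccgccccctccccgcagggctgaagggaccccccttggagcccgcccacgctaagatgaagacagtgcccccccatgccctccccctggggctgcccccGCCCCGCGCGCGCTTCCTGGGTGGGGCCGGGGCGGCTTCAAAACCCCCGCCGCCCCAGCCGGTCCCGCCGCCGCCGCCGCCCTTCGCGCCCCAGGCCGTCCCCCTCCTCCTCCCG
Runx1, proximal start (chr16:92697280-92697579, minus strand): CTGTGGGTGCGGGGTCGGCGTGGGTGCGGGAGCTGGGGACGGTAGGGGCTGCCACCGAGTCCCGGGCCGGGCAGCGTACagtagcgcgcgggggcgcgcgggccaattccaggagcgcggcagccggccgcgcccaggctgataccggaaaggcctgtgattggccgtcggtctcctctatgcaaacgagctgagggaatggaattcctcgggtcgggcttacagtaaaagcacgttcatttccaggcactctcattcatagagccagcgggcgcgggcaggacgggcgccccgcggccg
Runx1, distal start (chr16:92826025-92826324, minus strand): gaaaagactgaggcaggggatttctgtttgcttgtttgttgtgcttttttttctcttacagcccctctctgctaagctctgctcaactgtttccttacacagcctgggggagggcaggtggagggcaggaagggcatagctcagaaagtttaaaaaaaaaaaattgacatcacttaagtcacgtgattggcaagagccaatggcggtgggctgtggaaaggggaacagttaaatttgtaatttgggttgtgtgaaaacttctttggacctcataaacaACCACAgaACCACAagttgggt
miR-137-3p (chr3:118433901-118433923, plus strand): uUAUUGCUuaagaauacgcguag

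At these genes 3 of 25 H3K27ac regions were in the cKO list (10.8% of all H3K27ac regions were), as were 13 of 15 Pol II (92.2% of all), 17 of 18 Pol II Ser5P (98.0% of all) and 5 of 5 Pu.1 regions (95.9% of all). These counts follow the balance of the whole lists, so nothing particular to these genes is read from them. For H3K4me3 none of 3 regions was in the cKO list (61.5% of all were), too few regions to read. Tgfbr2, the receptor that starts the signal, had the most: 10 regions in cKO lists and 6 in cWT lists. Runx1 followed with 9 in cKO lists and 4 in cWT lists. It was the only one of the 9 with regions of all 5 antibodies (0.448% of all protein-coding genes had them). Runx1 is also the longest of the 9, at 225 kb. Per 100 kb of extended span it had 4.5 regions, against a median of 4.19 over genes with at least 1 region there. Pmepa1 had 3 in cKO lists and 7 in cWT lists, and Sall1 had H3K27ac regions only, 1 in the cKO list and 3 in the cWT list.

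A gene was called cKO only or cWT only for an antibody where all its regions of that antibody lay in that list. For Pol II Ser5P, 6 of the 9 genes were cKO only (27.4% of all 21887 protein-coding genes were), none was cWT only (0.279% of all), and Runx1 had regions in both lists (0.443% of all). For Pol II, 5 genes were cKO only (21.4% of all), Pmepa1 alone was cWT only (1.16% of all), and Smad3 had regions in both lists (1.01% of all). For Pu.1, 4 genes were cKO only (4.91% of all) and none was cWT only (0.137% of all). For H3K27ac no gene was cKO only (1.82% of all), 3 were cWT only (23.6% of all), and 3 more were in both lists (2.49% of all). For H3K4me3 no gene was cKO only (7.36% of all) and 3 were cWT only (4.51% of all). These genes are long, with a median span of 61.7 kb against 17.2 kb over all protein-coding genes, and a longer span collects more regions. Among the 11030 genes at least as long as the shortest of the 9, 32.8% were cKO only and 0.381% cWT only for Pol II Ser5P, 25.5% and 1.29% for Pol II, and 6.72% and 0.199% for Pu.1. In the same 11030 genes 2.0% were cKO only and 29.5% cWT only for H3K27ac, and 8.33% and 4.88% for H3K4me3. The shortest of the 9, Sall1, spans 16.9 kb, less than the median of all protein-coding genes. The 11030 genes are therefore not matched to the 9 in length, and no excess is read from these shares. Per 100 kb of extended span the 9 genes had a median of 5.25 regions, against 4.19 over the 10399 genes with at least 1 region there.

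**Figure D1:**
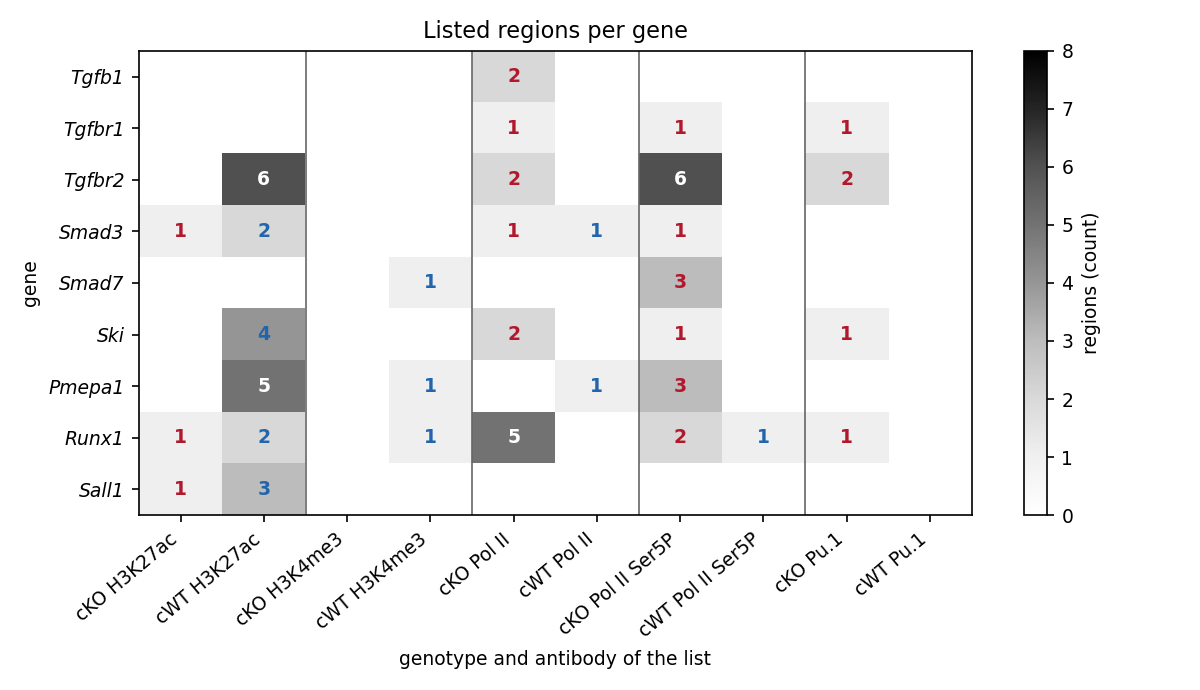
Number of listed regions (grey scale and digits) of each of the 9 genes (rows) in each list (columns, cKO left of cWT for each antibody). H3K27ac counts sit mainly in the cWT column, with 6 at Tgfbr2 and 5 at Pmepa1, and polymerase counts mainly in the cKO columns.

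The ligand gene Tgfb1 (gene ID 21803; chromosome 7, 25687002 to 25705077) had 2 regions, both in the cKO Pol II list. The region at 25686937 to 25687435 lay over its start, with a midpoint 184 bp downstream of it, and covered the 115 bases in capitals in its printed window. The other, at 25707728 to 25708078, lay 2.65 kb beyond the far end of the gene. By the same rule the region at the start also belonged to B9d2 and Tmem91, and the other to Ccdc97, so neither can be given to Tgfb1 alone. Without regions over another gene, 4 of the 9 genes were cKO only for Pol II, and Tgfb1 was not among them.

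Tgfbr1 (gene ID 21812; chromosome 4, 47353222 to 47414926), the receptor kinase that phosphorylates Smads, had 3 regions, all in cKO lists. A Pu.1 region at 47353075 to 47353418 lay over its start, with a midpoint 24 bp downstream. A Pol II Ser5P region at 47367633 to 47367835 lay 14.5 kb into the gene, and a Pol II region at 47398066 to 47398339 lay 45.0 kb in. No H3K27ac or H3K4me3 region was listed for it. The Ser5P region, of 203 bp, ranked 5551 of 6163 by deposited p in its list, near the end where the authors' values are weakest. The Pu.1 region at the start also stood toward that end, at rank 895 of 1017.

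Tgfbr2 (gene ID 21813; chromosome 9, 116087695 to 116175363, transcribed from the minus strand) binds the ligand and activates Tgfbr1. It had 16 listed regions, and 34 protein-coding genes, 0.155% of all, had that many or more. Just downstream of its start lay a cKO Pol II region (116174879 to 116175225, midpoint 311 bp from the start) and a cKO Pol II Ser5P region (116174920 to 116175299, midpoint 254 bp), which shared 306 bp. At 30.0 kb into the gene, a cKO Ser5P region at 116145047 to 116145600 contained a whole cKO Pu.1 region at 116145085 to 116145534. That Ser5P region had the smallest deposited p of all 66 (0.079) and ranked 143 of 6163 in its list.

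The 6 H3K27ac regions of Tgfbr2 were all in the cWT list. Upstream of the gene lay 3 of them, 2.92, 18.6 and 41.6 kb from its end, of which the last 2 belonged to Tgfbr2 by the nearest gene end alone. The cWT region at 116122791 to 116123374 contained a whole cKO Ser5P region (116122933 to 116123370), and the cWT region at 116086199 to 116086591, 1.10 kb past the gene, contained another (116086320 to 116086580). At these sites the H3K27ac and polymerase regions of Tgfbr2 were therefore in lists of opposite genotypes. The Ser5P regions there stood near the weak end of their list by deposited p, at ranks 5853 and 5417 of 6163. The cWT H3K27ac regions that contained them ranked 2760 and 4891 of 6995. A further cKO Pu.1 region, 3.27 kb past the gene, also belonged to its neighbour Gadl1. No H3K4me3 region was listed for Tgfbr2.

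Smad3 (gene ID 17127; chromosome 9, 63646766 to 63757994, minus strand), which carries the signal to DNA, had 3 regions in cKO lists and 3 in cWT lists, all inside the gene and none overlapping another. H3K27ac was listed once for cKO (63721392 to 63721773), and at 2 sites for cWT (63690411 to 63690906 and 63697756 to 63698413). Its Pol II regions were likewise divided, with a cKO region at 63731311 to 63731803 and a cWT region at 63740490 to 63740754. The cKO Ser5P region at 63716034 to 63716559 ranked 993 of 6163 in its list. The region nearest the Smad3 start was the cWT Pol II one, 17.4 kb into the gene.

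**Figure D2:**
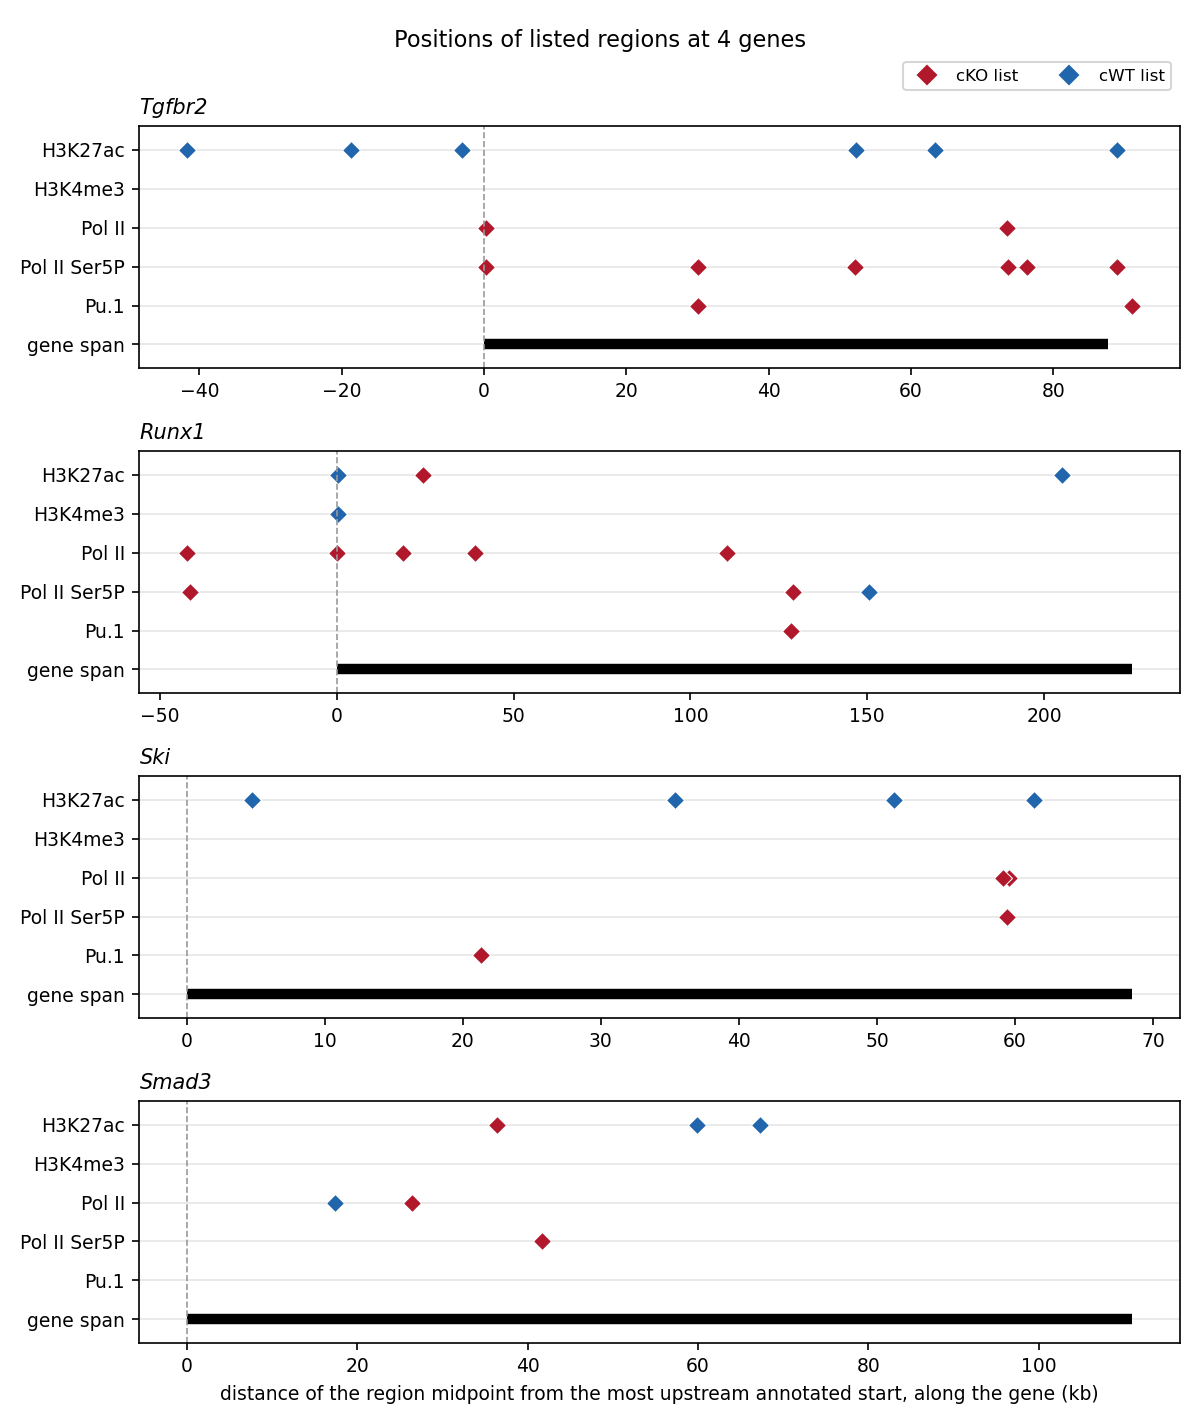
Midpoints of listed regions at Tgfbr2, Runx1, Ski and Smad3, as the distance in kb from the most upstream annotated start along the gene (dashed line), 1 row per antibody, red for cKO lists and blue for cWT lists; black bars are gene spans, and marks are not drawn to the width of the regions. At Tgfbr2 and Ski all H3K27ac marks are blue and all other marks red, while Smad3 and Runx1 hold both colours within an antibody.

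Smad7 (gene ID 17131; chromosome 18, 75367365 to 75395935), the inhibitory Smad that TGF-beta itself induces, had 3 Pol II Ser5P regions in the cKO list and 1 H3K4me3 region in the cWT list. The Ser5P regions lay outside the lower-coordinate end of the gene, at 0.275, 18.5 and 24.1 kb from it, and ranked 1423, 3243 and 1058 of 6163. The H3K4me3 region lay inside the gene, with its midpoint 2813 bp from the same end.

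Ski (gene ID 20481; chromosome 4, 155154075 to 155222535, minus strand), a corepressor that binds Smad complexes, had 4 regions in cKO lists and 4 in cWT lists, all inside the gene. The 4 cWT regions were H3K27ac, spread from 4.75 to 61.4 kb into the gene. Close to the 3' end, 59.1 to 59.5 kb in, 2 adjoining cKO Pol II regions (155162753 to 155163243 and 155163244 to 155163635) were both overlapped by a cKO Ser5P region (155162769 to 155163536). The Pu.1 region at 155201098 to 155201336 had the smallest deposited p among the Pu.1 regions of the 9 genes (0.28, rank 73 of 1017). No region of Ski lay within 1 kb of its annotated start.

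Pmepa1 (gene ID 65112; chromosome 2, 173224458 to 173276731), a TGF-beta target whose product sequesters Smad proteins, was the only one of the 9 called cWT only for Pol II. A cWT H3K4me3 region (173275657 to 173276185) and a cWT H3K27ac region (173276267 to 173276973) stood 81 bp apart at its higher-coordinate end. The other 4 cWT H3K27ac regions lay 57.4 to 75.9 kb beyond that end, so they belonged to Pmepa1 by the nearest gene end alone. At 59.2 kb beyond the end, its cWT Pol II region (173335975 to 173336289) shared 312 bp with a cKO Ser5P region (173335978 to 173336533), so the 2 polymerase antibodies were listed for opposite genotypes at the same place. By deposited p, that Pol II region ranked 260 of 394 and that Ser5P region 3508 of 6163, both past the middle of their lists. The remaining 2 Ser5P regions were in the cKO list and inside the gene.

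Runx1 (gene ID 12394; chromosome 16, 92601466 to 92826074, minus strand) encodes a Runt-domain transcription factor of blood and myeloid cells. It has a distal and a proximal annotated start, and listed regions lay at both. At the distal start, a cWT H3K27ac region of 1227 bp (92825113 to 92826339), the widest of the 66, contained a whole cWT H3K4me3 region (92825517 to 92825788) and a whole cKO Pol II region (92825841 to 92826305). At the proximal start, a cKO Pu.1 region (92697501 to 92697753) and a cKO Ser5P region (92696733 to 92697152) stood 348 bp apart on either side of it. By deposited p that Pu.1 region ranked 881 of 1017 and that Ser5P region 4788 of 6163. The distal start itself was thus covered by cKO Pol II and cWT H3K27ac, with cWT H3K4me3 downstream of it, and the proximal start was flanked by cKO regions.

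Upstream of the distal Runx1 start, 41.2 and 42.3 kb outside the gene, lay a cKO Ser5P region (92867274 to 92867887, p 0.201, rank 429 of 6163) and a cKO Pol II region (92868403 to 92868676). The remaining regions lay inside the gene: 3 cKO Pol II regions, 1 cKO and 1 cWT H3K27ac region, and the only cWT Ser5P region of the 9 genes (92675481 to 92675779).

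Sall1 (gene ID 58198; chromosome 8, 89027242 to 89044162, minus strand), a zinc finger factor that marks microglia among brain macrophages, had no polymerase, H3K4me3 or Pu.1 region in any list. Its 3 cWT H3K27ac regions lay inside the gene, at 0.899, 2.93 and 12.7 kb from its most upstream start, and its cKO H3K27ac region (89134576 to 89134853) lay 90.4 kb upstream of the gene. The cKO region belonged to Sall1 by the nearest gene end alone. With spans extended by 10 kb, only the 3 cWT regions were left. Their ranks by deposited p, from 5660 to 6808 of 6995, placed them in the weakest part of that list.

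Regions of different antibodies met at some of these sites: 18 of the 66 regions, 27.3%, shared at least 1 bp with a region of another antibody, against 44.0% of all 22399. There were 10 overlapping pairs. Of these, 6 joined lists of the same genotype and 4 lists of opposite genotypes, against 37.7% of 6529 pairs over all regions. Of the 4, 3 paired cKO polymerase with cWT H3K27ac, 2 at Tgfbr2 and 1 at Runx1, and the other was the site beyond Pmepa1. By gene, 3 of the 9 (Tgfbr2, Ski and Pmepa1) were cKO only for Ser5P and cWT only for H3K27ac, as were 11.1% of all protein-coding genes. For Pol II in place of Ser5P they were 2 (Tgfbr2 and Ski), against 9.25% of all.

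Annotated starts were at hand for 7 of the 9 genes, with 52 of the regions. Within 1 kb of a start lay 7 of their 32 cKO regions (21.9%, against 40.9% of all cKO regions) and 3 of their 20 cWT regions (15.0%, against 26.3% of all cWT regions). These pooled shares mix antibodies in other proportions than the lists do, and the antibodies went both ways. For Pu.1, 2 of 5 cKO regions lay near a start, against 23.3% of all cKO Pu.1 regions, and for H3K4me3 the single cWT region did, against 65.9%. For Pol II 3 of 13 cKO regions did (40.4% of all), for Ser5P 2 of 11 cKO regions (42.1% of all), and for H3K27ac 2 of 17 cWT regions (21.1% of all). These 10 regions were at Tgfb1, Tgfbr1, Tgfbr2, Sall1 and both starts of Runx1. Ski and Smad3, with 8 and 6 regions, had none there.

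The 11 promoter windows of these 7 genes were searched on both strands for short letter strings, among 21263 windows of the same length of all protein-coding genes. The Pu.1 core letters GAGGAA were in 3 of the 11 windows and in 27.4% of all. None lay in the stretches under the 2 cKO Pu.1 regions at starts: the Tgfbr1 start window held no match, and the match in the proximal Runx1 window, 46 bases before the start, lay outside the capitals. Of those Pu.1 regions, 147 bases at Tgfbr1 and 174 bases at Runx1 lay outside the windows and were not read. The Runx letters TGTGGT were in 1 of the 11 windows, the distal Runx1 one, and in 15.0% of all. That window held 2 matches, beginning 29 and 37 bases into the transcript, and 1.5% of all windows held 2 or more.

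Of the letters bound by Smad proteins, CAGAC was in 3 of the 11 windows (48.4% of all) and GGCGC in 7 (46.7% of all). GGCGC can overlap its own reverse complement GCGCC, and each was counted. The string AGCAATA, the match to the seed of the printed miR-137-3p, was in none of the 11 windows and in 1.69% of all. A string that rare would most often be missing from 11 windows. The windows also lie mostly before the transcript start, so its absence cannot tell whether the transcripts of these genes hold the string. A match here is a description of the letters, not a binding site.

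By the authors' own p-values, the regions of these genes had shares of small p near those of all regions. None of the 66 had a deposited p under 0.05, against 169 of 22399 (0.754%), and 10 (15.2%) had one under 0.5, against 17.4% of all. No source says what these p-values test, and here they rank regions within a list only. The 22 cWT H3K27ac regions had a median rank at 72.0% of their list, where 0 is the smallest p, and the 5 cKO Pu.1 regions at 86.6%. On the small-p side of the middle rank, though nearer to it than to the end, were 3 medians, each of few regions. They were those of the 3 cWT H3K4me3 regions (33.3%), the 2 cWT Pol II regions (43.4%) and the 3 cKO H3K27ac regions (48.2%). The single cWT Ser5P region also stood on that side, at 38.6%. The 17 cKO Ser5P regions, with a median rank at 52.6%, ranged from 2.32% at Tgfbr2 to 99.8%, also at Tgfbr2. In the tenth of a list with the smallest p stood 5 of the 66, 7.58% against 9.98% of all. They were the Ser5P region 30.0 kb into Tgfbr2, the Pol II region at the Tgfbr2 start, the upstream Ser5P region and the distal start H3K27ac region of Runx1, and the Pu.1 region of Ski.

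**Figure D3:**
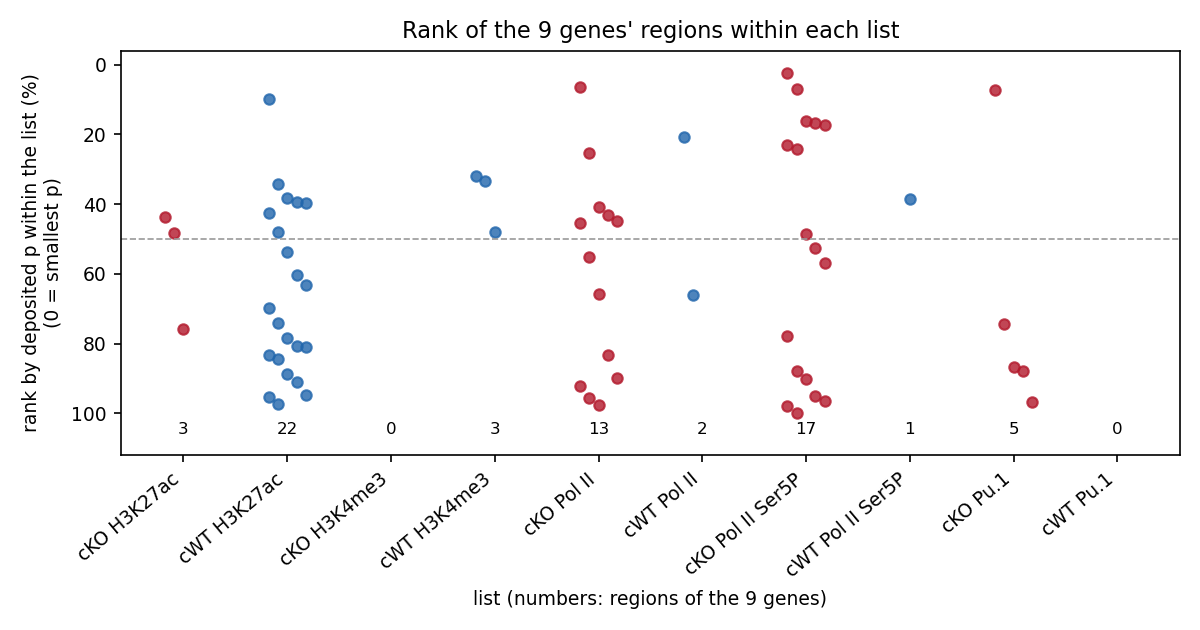
Rank of each of the 66 regions by deposited p within its own list, in percent of that list (0 is the smallest p, axis inverted), for the 10 lists, red for cKO and blue for cWT; numbers give the regions per list and the dashed line the middle rank. The cWT H3K27ac points lie mostly below the line, and the best ranked point is a cKO Ser5P region at 2.32%.

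The share of regions in the cKO list was set against that of all regions of the same antibody. For Pol II Ser5P, 17 of 18 regions were in the cKO list, 94.4% (exact Clopper-Pearson 95% interval 72.7 to 99.9%, counting error only), against 98.0% of all Ser5P regions. For Pol II it was 13 of 15, 86.7% (exact 95% interval 59.5 to 98.3%), against 92.2%. For Pu.1 it was 5 of 5 (exact 95% interval from 47.8%), against 95.9%. For H3K27ac it was 3 of 25 (exact 95% interval 2.55 to 31.2%), against 10.8%. For H3K4me3 none of 3 was in the cKO list, which allows a share of up to 70.8% (exact 95% interval), against 61.5% of all. Each of the 5 intervals contains the share of all regions, so no departure of the genes from their antibody was detectable at these numbers. The intervals count regions as separate draws, though many come from the same gene. Tgfbr2 alone gave 6 of the 18 Ser5P and 6 of the 25 H3K27ac regions. For H3K4me3, where 0 of 3 stood against 61.5%, the interval is too wide to place the genes.

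**Figure D4:**
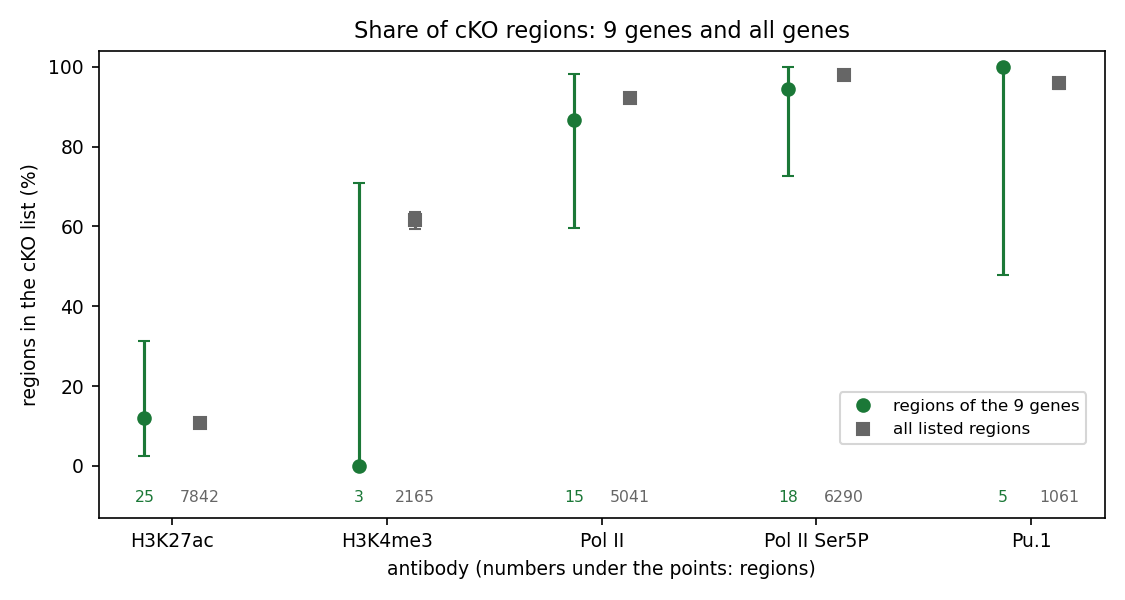
Percent of regions in the cKO list for each antibody, over the regions of the 9 genes (green circles) and over all listed regions (grey squares), with exact 95% intervals for counting error and the number of regions under each point. The green intervals are wide, from 3 to 25 regions each, and each contains its grey square.

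The wider pathway was described with 57 further genes, of which 44 had at least 1 listed region, as had 49.6% of all protein-coding genes. For Pol II Ser5P, 28 of the 57 were cKO only (27.4% of all genes) and none was cWT only (0.279% of all), with Nrros, Pdpk1 and Smad1 leading at 3 cKO regions each. Nrros tethers latent TGF-beta to the surface of microglia, and Smad1 answers bone morphogenetic proteins. For Pol II, 23 were cKO only (21.4% of all) and Tab2, Trim33 and Usp15 were cWT only (1.16% of all). Ldlrad4, a membrane inhibitor of the pathway, led with 6 cKO Pol II regions. It also had 1 cKO and 5 cWT H3K27ac regions. For H3K27ac, 2 were cKO only (1.82% of all) and 14 were cWT only (23.6% of all), led by the activin receptor Acvr2b with 5 cWT regions and Id2 with 3. For Pu.1, 4 were cKO only (4.91% of all) and none was cWT only (0.137% of all), and for H3K4me3 5 were cKO only (7.36% of all) and 3 cWT only (4.51% of all).

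By role, at least 1 region was listed for 8 of 9 receptors, 10 of 11 Smads and partners, 11 of 13 inhibitors and 5 of 5 targets. The same held for 3 of 4 genes of the Smad-independent arm, 2 of 3 Sall relatives and 5 of 12 ligand and latency genes (41.7%). Over all protein-coding genes the share was 49.6%. Gene length was not matched in these comparisons of the wider list, so a high share is not read as a trait of the pathway. Among ligand and latency genes, Nrros and the integrin gene Itgav had 6 regions each, and Furin, a protease that cleaves the TGF-beta precursor, had 5. Tgfb2 had 1 cKO Pol II region, and Tgfb3 and the 4 latency genes Ltbp1, Ltbp2, Ltbp3 and Ltbp4 had none. Smad4, the shared partner of Smad3, had 2 Pol II and 2 Ser5P regions, all in cKO lists.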

How the data were processed

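CUT&Tag libraries of 30 samples in 10 groups (2 genotypes, 5 antibodies) were represented by 10 deposited region lists, 1 per group. Tools named per the submitters' processing notes are HOMER 4.11, bedtools 2.30.0, MACS2 2.2.7.1 and Bowtie2 2.4.4, with the builds GRCm38 and mm10. The criterion for a genotype-specific region, and any pooling of replicates, is not stated there. The authors deposited, per region, a score of 1 to 1000, a signal on an unstated scale, a p-value and a q-value, of which the q-value was not used. The score deposited by the authors equals the whole part of -125 times the log2 of the p-value, at most 1000, in all 22399 regions. Depth is unknown.

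Regions were assigned to the 21887 RefSeq protein-coding genes on placed chromosomes by the rule given, with positions counted from 1. The assignment was tested on simulated data. Intervals are exact Clopper-Pearson ones of 95%. Promoter windows came from RefSeq (GRCm38.p6) and were found for 7 of the 9 genes. Exons, introns and UTRs were not annotated. All 9 genes are named. Of the wider list the 3 with the most regions per antibody and direction could be named, and other genes and single regions were named after their values were seen. The members and lists were chosen with earlier results of these data known. Alternatives changed the assignment, merged regions, left out narrow regions or regions over another gene, or kept the 50% of each list with the smaller p. The planned limma fit needed values per replicate and was not made. Software was matplotlib 3.10.9, scipy 1.17.1, pandas 2.3.3 and numpy 2.4.6 under Python 3.11.15.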

Additional observations from a re-analysis of the deposited data

How the results depend on the processing

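Of the values recomputed under alternatives, 116 stayed within the counting interval of the share or within 1.5 times the count, and 9 did not. The alternatives to the assignment and to the lists only removed or merged regions, so part of the 116 could not move. With no cKO H3K4me3 and no cWT Pu.1 region at these genes, the cKO shares of both antibodies were fixed in advance. So were the count of genes cKO only for H3K4me3 and that of genes cWT only for Pu.1. Keeping the 50% of each list with the smaller p gave 3 genes cKO only for Pol II (5 with whole lists) and 1 for Pu.1 (4 with whole lists). For H3K27ac it gave 1, Sall1 (0 with whole lists). Under that setting 0 genes were cWT only for Pol II. The same 0 arose from the gene span only, from the extended span only and from the nearest end within 10 kb or the span, since the Pmepa1 region lies 59.2 kb beyond the gene. Without regions under 300 bp, 2 genes were cKO only for Pu.1, and the cKO share of Pol II Ser5P came to 100.0% (14 of 14). Counts of 5 or fewer regions limit what Pu.1 and H3K4me3 can show. No paired analysis was possible because the lists hold no value per replicate.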

Other observations

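Of 6 relatives and partners of the 2 transcription factors, 5 had a listed region, against 49.6% of all protein-coding genes, whose median was 2 among those with any. Sall2 and Sall3 each had 1 H3K4me3 and 1 Pol II Ser5P region, all in cKO lists, and Sall4 had none, while Sall1 itself had H3K27ac regions only. Runx2 had 1 H3K4me3 region in each list and 1 Ser5P region in the cKO list. Runx3 had 1 cKO Ser5P region, and Cbfb, the shared partner of Runx proteins, had 1 cKO Pol II region.

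Region counts over the 10 lists were compared between genes by Euclidean distance, as a description. Nearest to Tgfbr2 (16 regions) were Epb41l2 and Itpr2, at a distance of 1.73 each, and Reep3 at 2.24. Reep3 had 6 cWT H3K27ac, 4 cKO Pol II, 7 cKO Ser5P and 2 cKO Pu.1 regions. Nearest to Runx1 (13 regions) were Cradd, Apbb1ip and Tpst2, at 2.0 each. Nearest to Pmepa1 (10 regions) were Slc16a10 and Ankrd11, at 1.41 each, and Ehd4 at 1.73. Longer genes hold more regions, and the span of Itpr2 (394 kb) exceeds that of Tgfbr2 (87.7 kb).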
